A study of Mus musculus with 31 samples.

Results

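The purinergic and adenosine receptors of microglia comprise 10 of the 55401 genes in the count tables and were found by gene symbol: 4 P2Y receptors (*P2ry12*, *P2ry13*, *P2ry6*, *P2ry1*), 2 P2X receptors (*P2rx4*, *P2rx7*), the ectonucleotidase *Entpd1* and 3 adenosine receptors (*Adora1*, *Adora2a*, *Adora3*). All 10 passed the minimum of 10 counts in 3 libraries in each comparison. RNA-seq libraries of 31 samples of mice of 13 months of age, on a C57BL/6J background, were analysed. A+ mice carry the APPswe and PS1dE9 transgenes under the mouse prion protein promoter, A- mice carry neither, and Pki/ki mice are homozygous for the PLCγ2-P522R knock-in (KI) in their own *Plcg2* gene, where Pwt/wt mice have the wild-type (WT) allele. Temporo-occipital cortex was sequenced from female A-/Pwt/wt (n = 1), A+/Pwt/wt (n = 4) and A+/Pki/ki mice (n = 4). Microglia were taken with magnetic beads against CD11b, an integrin subunit of microglia and other myeloid cells, from the dissociated brains of perfused female A-/Pwt/wt (n = 7), A+/Pwt/wt (n = 4) and A+/Pki/ki mice (n = 4), and of male A-/Pwt/wt (WT, n = 3) and A-/Pki/ki mice (KI, n = 4). The cortex libraries held 25.2 to 43.1 M counts, the female CD11b+ libraries 18.9 to 25.1 M and the male CD11b+ libraries 16.2 to 19.9 M.

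Damaged or active cells release ATP and UTP, which ectonucleotidases such as CD39, the product of *Entpd1*, break down to monophosphates. AMP is then cut further to adenosine. P2Y receptors couple to G proteins, P2X receptors are cation channels opened by ATP, and adenosine acts on receptors that lower cyclic AMP (those of *Adora1* and *Adora3*) or raise it (that of *Adora2a*). In microglia, P2Y12 binds ADP and steers the processes of the cell toward injury, P2Y6 binds UDP and is known for its part in phagocytosis, and P2X7 leads to the activation of the NLRP3 inflammasome. *Adora1* and *Adora2a* are also known from neurons, *Adora1* in cortex and *Adora2a* in striatum.

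In GRCm38, *P2ry12* (ENSMUSG00000036353.13, chr3:59216272-59262871) and *P2ry13* (ENSMUSG00000036362.2, chr3:59207892-59210882) lie 5389 bases apart on the minus strand, both within *Med12l* on the other strand. *P2ry1* (chr3:61002795-61008982) is on the same chromosome. *P2rx7* (chr5:122643911-122691432) and *P2rx4* (chr5:122707544-122729738) are neighbours on the plus strand, 16111 bases apart. The other members are *P2ry6* (chr7:100937630-100974649), *Entpd1* (chr19:40612366-40741602), *Adora1* (chr1:134199223-134235431), *Adora2a* (chr10:75316877-75334784) and *Adora3* (chr3:105870858-105908926). Counts are uncertain where exons overlap those of another gene, also on the other strand, as the authors counted without regard to strand. On the other strand this holds for 1162 bases of *Adora1* (*Mybph*), 992 bases of *P2ry1* (*Gm37035*) and 9 bases of *P2ry12* (*Med12l*). On the same strand it holds for 779 bases of *Adora3* (*Tmigd3*) and 119 bases of *P2rx7* (*Mir8115*).

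The 250 bases before the start sites of *P2ry13* and *P2ry12* are shown because these adjacent genes had the highest levels of the members in CD11b+ microglia. They are from RefSeq (GRCm38.p6), on the minus strand at chr3:59210883-59211132 and chr3:59262986-59263235. Capitals mark a GAGGAA core of PU.1, a transcription factor that myeloid cells need.
P2ry13: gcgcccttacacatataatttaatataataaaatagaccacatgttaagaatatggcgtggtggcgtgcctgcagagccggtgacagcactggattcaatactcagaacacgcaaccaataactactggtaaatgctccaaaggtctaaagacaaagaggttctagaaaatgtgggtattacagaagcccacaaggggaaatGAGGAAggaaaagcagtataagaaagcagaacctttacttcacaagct
P2ry12: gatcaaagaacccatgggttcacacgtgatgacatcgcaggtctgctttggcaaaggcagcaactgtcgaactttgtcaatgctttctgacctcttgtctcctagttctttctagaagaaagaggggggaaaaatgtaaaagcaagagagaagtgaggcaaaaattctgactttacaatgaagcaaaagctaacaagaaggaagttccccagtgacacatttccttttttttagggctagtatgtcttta
Windows of 300 bases around the start site matched 8 of the 10 members, all but *P2ry6* and *Adora2a*. A PU.1 core on either strand was in 5 of the 11 windows of these members (of *P2ry13*, *P2rx7*, *Entpd1* and *Adora3*) and in 28.3% of all 32851 windows. The letters of the PU.1 core were not in the *P2ry12* window.

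Each library was first checked against its label. *App*, the gene that the transgene adds to, was 1913 CPM (counts per M counts of the library, scaled by TMM) in the A- cortex library and 3255 to 3931 in the 8 A+ cortex libraries. In CD11b+ microglia, *App* did not separate A+ from A- libraries (505 to 1072 against 611 to 952 CPM in females). The level of *Plcg2* does not check a point mutation; it was 242 to 246 CPM in male WT and 168 to 222 in male KI. *Csf1r*, the most abundant of 15 microglia markers, averaged 4641 to 7619 CPM in the CD11b+ groups and 99.6 to 171 in the cortex groups, and no marker was at 0. RNA of other cells was present too, as the 10 oligodendrocyte markers summed to 6705 to 72814 CPM in the CD11b+ libraries, with *Mbp* the most abundant. Among the CD11b+ libraries, A-/Pwt/wt mouse 223 had the highest summed neuron markers (5295 CPM) and share of mitochondrial counts (24.5%), with A+/Pki/ki mouse 335 next in both (2649 CPM and 19.4%).

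Per kb of exon, *P2ry12* had the highest level of the 10 members in CD11b+ microglia, followed by *P2ry13*, *Entpd1*, *P2ry6* and *P2rx7*, in this order in all 5 groups. In male WT mice, *P2ry12* was 764 ± 53.1 CPM per kb (SD, n = 3), *P2ry13* 268 ± 11.5, *Entpd1* 102 ± 0.600, *P2ry6* 52.2 ± 1.85 and *P2rx7* 30.5 ± 1.14. Below these came *Adora3* with 13.3 ± 0.496, *P2rx4* with 9.53 ± 0.587, *Adora1* with 2.05 ± 0.277, *P2ry1* with 1.03 ± 0.166 and *Adora2a* with 0.965 ± 0.237 CPM per kb. All neighbours in this order had ranges apart except *P2ry1* and *Adora2a*. In female A-/Pwt/wt microglia, the ranges of *P2ry6* (25.3 to 47.6 CPM per kb) and *P2rx7* (14.4 to 29.0) overlapped. In the cortex of A+/Pwt/wt mice, the order began instead with *Adora2a* (29.5 ± 13.6 CPM per kb, SD, n = 4), *P2ry12* (22.0 ± 3.80) and *Adora1* (21.8 ± 0.174), whose ranges overlapped from neighbour to neighbour.

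**Figure D1:**
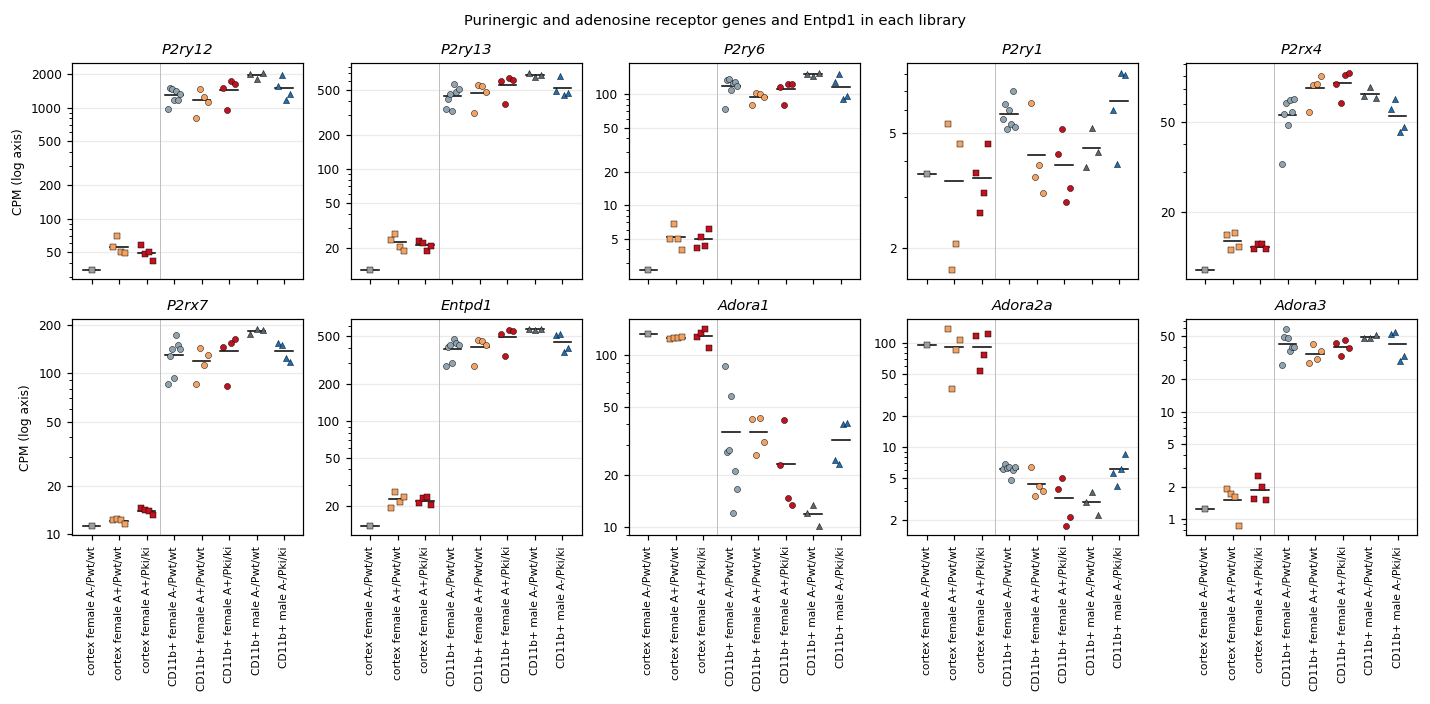
Level of each member in every library (y axis, CPM on a log axis) by tissue, sex and genotype (x axis), with bars at the group means; squares are cortex, circles female and triangles male CD11b+ microglia. The CD11b+ libraries lie above all cortex libraries for *P2ry12*, *P2ry13*, *P2ry6*, *P2rx4*, *P2rx7*, *Entpd1* and *Adora3*, and below them for *Adora1* and *Adora2a*. Levels of cortex, female and male CD11b+ libraries share no scaling.

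CD11b+ microglia and cortex of the same genotype were compared to see which members were higher in the microglia than in the tissue. The microglia came from dissociated whole brains, and the tissue was temporo-occipital cortex of other mice. In A+/Pwt/wt mice, *P2ry12* was 813 to 1466 CPM in CD11b+ microglia (mice 331 and 367 at the ends) and 49.1 to 69.9 in cortex, a 25.8-fold difference (log2FC 4.69 ± 0.22 SE, edgeR adjusted p = 1.3107e-08). *Adora3*, the least abundant member in cortex, was 28.2, 42.7, 30.5 and 36.8 CPM against 1.91, 1.72, 1.60 and 0.875 (28.3-fold), and *P2ry13* differed 26.3-fold. *P2ry6* (22.9-fold) and *Entpd1* (22.1-fold) were close to these. The P2X receptors were less enriched, *P2rx7* 12.1-fold and *P2rx4* 5.87-fold. In all 7 genes each CD11b+ library was above each cortex library. The folds come from a fit of both kinds of sample together, whereas the levels were scaled within each kind. The folds are therefore not ratios of the levels, and the placing of libraries rests on levels that share no scaling.

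The other adenosine receptors went the opposite way. *Adora1* was 42.5, 26.3, 43.1 and 31.3 CPM in CD11b+ microglia and 125 to 127 in cortex (log2FC -1.51 ± 0.15 SE, adjusted p = 4.2237e-06). *Adora2a* was 6.35, 3.39, 4.22 and 3.74 CPM against 135, 36.2, 85.2 and 105 (log2FC -4.04 ± 0.38 SE, adjusted p = 2.5046e-06). *P2ry1*, at 3.10 to 6.35 CPM against 1.68 to 5.36, was not called (log2FC 0.60, 95% interval -0.24 to 1.44, adjusted p = 0.169). Hence 7 of 10 members were higher, against 37.7% of the 18541 genes tested, and 2 were lower, against 40.2%.

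In A+/Pki/ki mice, which share no library with these, the same 7 members were higher and the same 2 lower, against 36.8% and 39.8% of 18954 genes. The log2FC ranged from 2.72 for *P2rx4* to 5.21 for *P2ry12* among the 7, and was -2.16 for *Adora1* and -4.51 for *Adora2a*. On the levels scaled within each kind of sample, 28.2% of all genes in A+/Pwt/wt and 27% in A+/Pki/ki mice had all CD11b+ libraries above all cortex libraries. Below were 46% and 46.9%. The 15 microglia markers were higher in both comparisons (median log2FC 4.75 and 4.95), as were the 11 neutrophil and monocyte markers (6.70 and 8.71), the 7 border macrophage markers (4.25 and 4.43) and 10 and 9 of 10 endothelial and mural markers (3.07 and 2.36), beside medians of 4.03 and 4.17 over the 10 members, and the 20 neuron markers were lower (median -4.18 and -4.89). Of 12 astrocyte markers, 11 were lower in both (median -1.04 and -1.84), and 1 was higher in A+/Pwt/wt mice. Of 10 oligodendrocyte markers, 5 and 4 were lower and 2 higher in each (median -0.52 and -0.77). RNA was extracted by different methods from the 2 kinds of sample, which also differed in brain region and in the dissociation of the cells. Method, region, dissociation and cell content cannot be told apart.

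**Figure D2:**
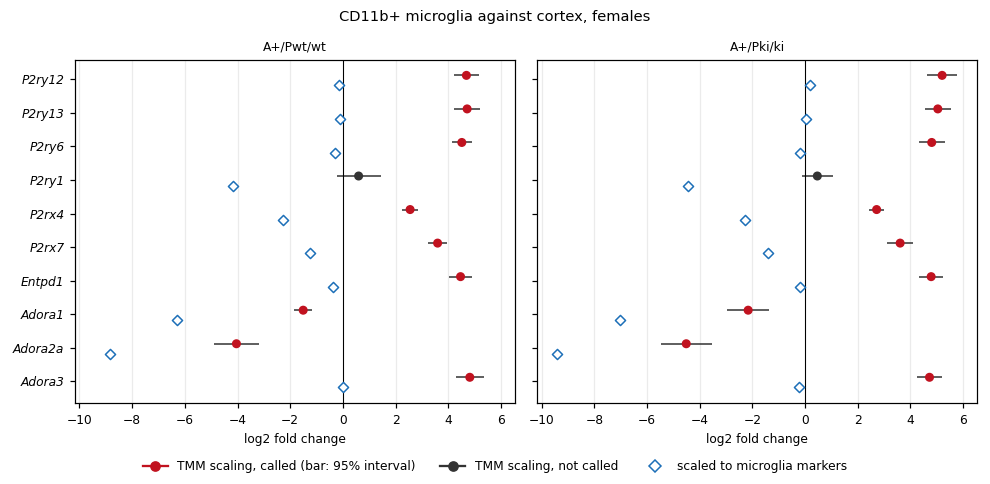
Log2 fold change of each member between CD11b+ microglia and cortex (x axis) in A+/Pwt/wt and A+/Pki/ki females, n = 4 against 4 in each; filled points with 95% intervals are from TMM scaling and open diamonds from scaling to 12 microglia genes. With TMM, 8 members lie above 0, of which *P2ry1* was not called, and *Adora1* and *Adora2a* lie below. With microglia scaling *P2ry12*, *P2ry13*, *P2ry6*, *Entpd1* and *Adora3* lie at -0.37 to 0.20, with *Entpd1* called lower in A+/Pwt/wt mice. *P2rx4*, *P2rx7* and *P2ry1* then lie below these.

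Scaled to 12 microglia genes instead of all genes, *P2ry12*, *P2ry13*, *P2ry6*, *Entpd1* and *Adora3* differed by -0.37 to 0.20 on the log2 scale between the sources in the 2 genotypes. Of these, *Entpd1* was called lower in CD11b+ microglia of A+/Pwt/wt mice (-0.37, adjusted p = 0.035), as were 95.3% of all genes (94.8% in A+/Pki/ki mice). *P2rx4* was then lower in CD11b+ microglia (-2.29 and -2.26), as was *P2rx7* (-1.25 and -1.40). This scaling set the median of all genes to -4.87 and -5.04, and these values were above it. As a share of the summed microglia markers, *P2ry12* was 5.15% in cortex and 4.83% in CD11b+ microglia of A+/Pwt/wt mice (medians), while *P2rx4* was 1.48% and 0.306% and *P2rx7* 1.18% and 0.497%. The cells of the cortex that carry this RNA were not measured. In bulk samples such as these, fewer cells of a type and less RNA per cell cannot be told apart.

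The KI effect without the transgenes was measured in male CD11b+ microglia. *Adora1* and *Adora2a* were higher and *P2rx7* lower in KI than in WT males, so that 2 of 10 members rose, against 11.1% of the 16373 genes tested, and 1 fell, against 5.26%. *Adora1* was 12.02, 13.3 and 10.2 CPM in WT mice and 24.6, 23.1, 39.9 and 40.5 in KI mice, a 2.65-fold difference (log2FC 1.41 ± 0.25 SE, edgeR adjusted p = 0.00753). *Adora2a* was 2.95, 3.69 and 2.23 CPM against 5.62, 4.22, 6.12 and 8.57 (log2FC 1.03 ± 0.29 SE, adjusted p = 0.0423). For both receptors the KI libraries lay above all WT libraries. *P2rx7* was 174, 188 and 184 CPM in WT and 154, 149, 124 and 117 in KI mice (log2FC -0.46 ± 0.10 SE, adjusted p = 0.0191), all KI libraries lying below.

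The other 7 members did not pass the threshold with edgeR. DESeq2 called 6 members, 2 higher, against 14.8% of all genes, and 4 lower, against 7.95%, as *P2ry13*, *P2rx4* and *Entpd1* passed there (adjusted p = 0.0265, 0.039 and 0.0289). *P2ry12* was 1994, 1792 and 2050 CPM in WT and 1569, 1980, 1177 and 1322 in KI mice (log2FC -0.41, 95% interval -0.82 to 0.01, adjusted p = 0.155), and KI mouse 104 lay among the WT mice. *P2ry13* (708, 650 and 676 against 493, 666, 452 and 473 CPM, adjusted p = 0.0747) and *P2ry6* (151, 145 and 156 against 129, 153, 90.7 and 95.8 CPM, adjusted p = 0.109) showed the same placing of this mouse. The groups did not overlap for *Entpd1*, at 563 to 570 CPM in WT and 368 to 515 in KI mice (adjusted p = 0.0769), nor for *P2rx4*, at 63.7 to 71.6 and 45.2 to 63.5 CPM (adjusted p = 0.0594). *P2ry1* (log2FC 0.52, adjusted p = 0.228) and *Adora3* (-0.26, adjusted p = 0.376) overlapped between the groups. Altogether the ranges of WT and KI mice were apart in 3 members with lower KI values, against 11.5% of all genes, and in 2 with higher values, against 17.5%. The median log2FC was -0.37 over the members and -0.0012 over all genes.

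**Figure D3:**
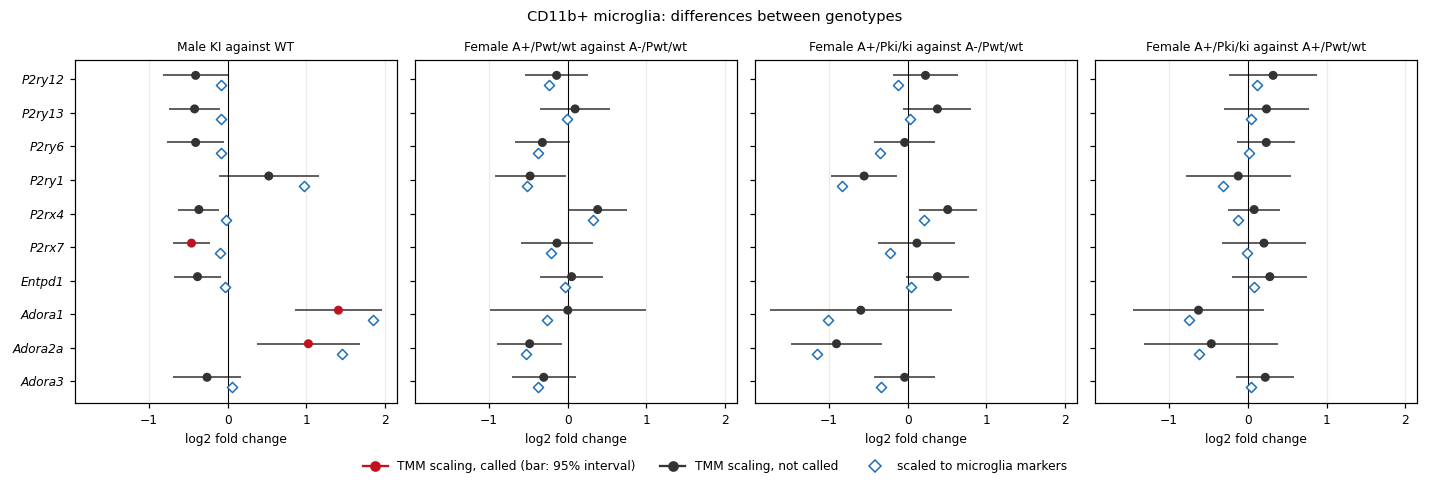
Log2 fold change of each member (x axis, with 95% intervals) in the 4 comparisons of KI and transgene in CD11b+ microglia, from TMM scaling, with open diamonds from scaling to 12 microglia genes. Red points mark calls, which are *Adora1* and *Adora2a* above 0 and *P2rx7* below in the male comparison, and the diamonds of the 7 members with TMM values below 0 lie close to 0.

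Markers of other brain cells differed between the male groups in the direction of *Adora1*. All 20 neuron markers were higher in KI mice (median log2FC 2.11), and their sum was 263 to 382 CPM in WT and 862, 1104, 1612 and 1875 in KI mice 84, 104, 136 and 139, with *Camk2a* the most abundant and none at 0. All 12 astrocyte markers rose as well (sums 958 to 1209 against 1775 to 3086 CPM), as did 7 of 10 oligodendrocyte markers (18121 to 23298 against 27727 to 59571 CPM) and 3 of 10 endothelial and mural markers (1290 to 1787 against 1507 to 3011 CPM, with all 10 above 0 at a median log2FC of 0.78). The share of mitochondrial counts was 3.97 to 5.02% in WT and 7.40 to 12.8% in KI mice. Of the 15 microglia markers, 2 fell and all 15 had a log2FC below 0 (median -0.33, sums 32305 to 32555 against 19841 to 37434 CPM). Of 11 neutrophil and monocyte markers, 10 had values above 0 without passing (median 0.53). Of 10 amyloid response markers, genes such as *Cst7* and *Apoe*, 9 had values below 0 (median -0.62) and 1 was called lower. As a share of the neuron marker sum, *Adora1* was 3.49 to 4.50% in WT, 2.09 to 2.85% in KI and 0.651 to 0.806% in the cortex of A+ mice. The part of these cells in the rise of *Adora1* and *Adora2a* was not tested.

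Scaled to the 12 microglia genes, *P2rx7* was no longer called (log2FC -0.10, adjusted p = 0.725), and *P2ry12*, *P2ry13*, *P2ry6*, *P2rx4* and *Entpd1* had log2FC of -0.08 to -0.02. Only *Adora1* passed (1.85, adjusted p = 0.018), with a median of 0.37 over all genes, of which 10.6% were called higher. Of all 16373 genes, 4 were called lower with this scaling, so the lost call of *P2rx7* is not particular to it. *Adora2a* (log2FC 1.03 with TMM) also lost its call. This scaling raised the median of all genes from -0.0012 to 0.37, so this loss does not show a smaller difference. *Adora1* was called with each library left out in turn (adjusted p 0.0017 to 0.035), whereas leaving out WT mouse 94, 101 or 102 or KI mouse 139 left it the only member called, and leaving out KI mouse 104 gave 9 (3 higher, against 20.2% of all genes, and 6 lower, against 13.3%).

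**Figure D4:**
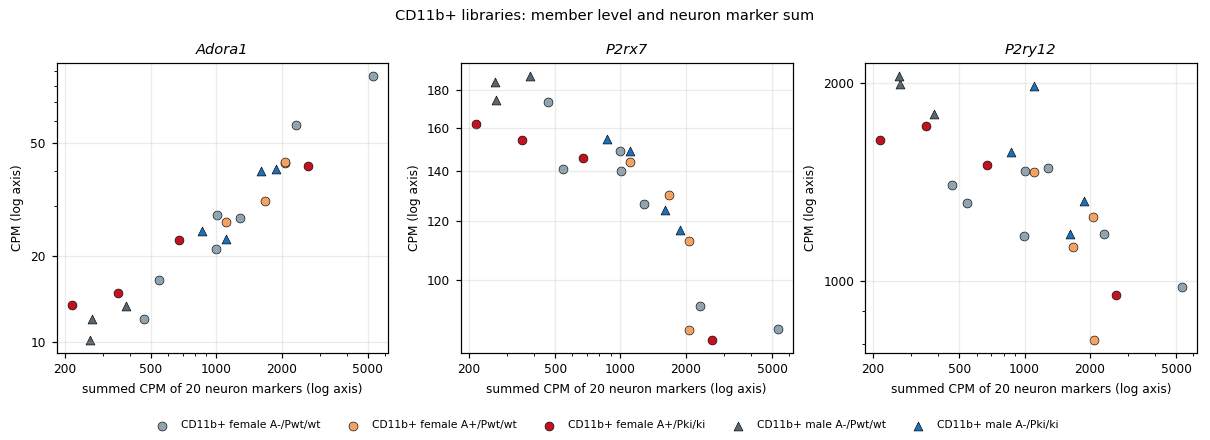
*Adora1*, *P2rx7* and *P2ry12* (y axes, CPM on log axes) against the summed CPM of 20 neuron markers (x axes, log) in each of the 22 CD11b+ libraries. *Adora1* is 10.2 to 13.3 CPM in the male WT libraries, whose neuron marker sums were 263 to 382 CPM, and 86.3 CPM in female mouse 223, whose sum was 5295 CPM, while *P2rx7* is 174 to 188 CPM in the former and 86.0 CPM in the latter. The lowest sum, 216 CPM, is that of female mouse 405, with 13.4 CPM *Adora1* and 162 CPM *P2rx7*. Male and female levels share no scaling.

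The effect of the APP/PS1 transgenes was measured in female CD11b+ microglia, where both A+ groups were compared with the same 7 A-/Pwt/wt libraries. A+/Pki/ki mice differ from these in the knock-in as well, so that transgenes and knock-in cannot be told apart in that comparison. No member was called, against 1.29% of 17355 genes in A+/Pwt/wt and 1.64% of 17446 in A+/Pki/ki mice with edgeR, and 3 members had an unadjusted p under 0.05 in each, as had 1755 and 2647 of all genes. DESeq2 called 0 members and 3.66% of all genes in the former and 1 member and 5.48% in the latter. *P2rx4* was 32.6 to 63.6 CPM in A-/Pwt/wt (median 55.6), 55.5, 73.2, 73.8 and 79.7 in A+/Pwt/wt and 73.8, 60.9, 81.0 and 82.6 in A+/Pki/ki mice (log2FC 0.38 and 0.51, adjusted p = 0.488 and 0.177). In each A+ group, 3 of 4 libraries lay above all A- libraries, and the groups overlapped. The share of all genes with such a placing is not given. *Adora2a* was 4.83 to 6.89 CPM (median 6.31), 3.39 to 6.35 and 1.76 to 4.99 in these groups (log2FC -0.48 and -0.91, adjusted p = 0.364 and 0.129). *P2ry1* was 5.16 to 7.01, 3.10 to 6.35 and 2.88 to 5.18 CPM (log2FC -0.48 and -0.55, adjusted p = 0.448 and 0.198).

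*P2ry12* was 976 to 1487 CPM in A-/Pwt/wt (median 1314), 813, 1466, 1252 and 1124 in A+/Pwt/wt and 1503, 949, 1719 and 1640 in A+/Pki/ki mice, and its log2FC of -0.14 had a 95% interval of -0.54 to 0.26 and that of 0.23 an interval of -0.19 to 0.64. In A+/Pki/ki mice, all libraries but that of mouse 335 lay above the A- libraries for *P2ry12* (adjusted p = 0.584). They did so for *P2ry13* (606, 373, 638 and 607 against 324 to 561 CPM, log2FC 0.38, adjusted p = 0.395) and *Entpd1* (517, 344, 560 and 544 against 283 to 472 CPM, log2FC 0.38, adjusted p = 0.362). With mouse 335 the groups overlapped for each of these genes, and the share of all genes placed in this way is not given. For comparison, 8 and 9 of 10 amyloid response markers, genes such as *Cst7* and *Apoe* that microglia near plaques are known to express, were higher in the same comparisons. Of the lists of other cell types, the border macrophage markers alone had called members, 2 and 1 of 7 lower, and 0 of 15 microglia markers passed. In A+/Pki/ki mice, markers of other brain cells had values below 0 together with *Adora2a* without passing, which held for 20 of 20 neuron (median log2FC -0.87), 11 of 12 astrocyte (-0.70), 10 of 10 oligodendrocyte (-0.53) and 10 of 10 endothelial and mural markers (-0.65). Summed endothelial and mural markers were 1398 to 2221 CPM in A-/Pwt/wt and 732 to 1782 CPM in A+/Pki/ki mice, and their part in the values of *Adora2a* was not tested. Above 0 in these mice were 14 of 15 microglia (median 0.18) and 10 of 11 neutrophil and monocyte markers (1.32). In A+/Pwt/wt mice, 9 of 10 endothelial and mural (-0.32), 8 of 10 oligodendrocyte (-0.24) and 11 of 11 neutrophil and monocyte markers (-1.06) were below 0, like *Adora2a* and *P2ry1*, against 11 of 20 neuron (-0.034) and 5 of 12 astrocyte markers (0.043). The column tag b2 or b3 differs between A+ and A- libraries, so that what it stands for and the transgene cannot be told apart. With mice 223 and 236 left out, *P2ry6* was called lower in A+/Pwt/wt mice (log2FC -0.43, adjusted p = 0.0375, against 1.61% of all genes lower), and without A+/Pki/ki mouse 335, *Adora2a* was called lower in A+/Pki/ki mice (log2FC -1.20, adjusted p = 0.0242, against 2.26% lower), as it was by DESeq2 (adjusted p = 0.0223).

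The KI effect in the presence of the transgenes was measured in CD11b+ microglia and in cortex. In CD11b+ microglia, edgeR called 0 members and 0% of 17039 genes between A+/Pki/ki and A+/Pwt/wt mice, with 575 genes and 0 members at an unadjusted p under 0.05, and DESeq2 called 7 genes (0.0411%) and 0 members. *Adora1* had the largest difference of the members (log2FC -0.63, 95% interval -1.46 to 0.21), at 22.9, 41.8, 14.8 and 13.4 CPM in A+/Pki/ki and 42.5, 26.3, 43.1 and 31.3 in A+/Pwt/wt mice. Its highest A+/Pki/ki value was that of mouse 335, which also had the lowest *P2ry12*, *P2ry13*, *P2ry6*, *P2rx4*, *P2rx7*, *Entpd1* and *Adora3* of its group. The 20 neuron markers also had values below 0 without passing (median log2FC -0.82), and their sums were 671, 2649, 351 and 216 CPM in A+/Pki/ki and 2078, 1108, 2064 and 1669 CPM in A+/Pwt/wt mice, with the mice listed as for *Adora1*. All 12 astrocyte (median -0.68), 10 oligodendrocyte (-0.29) and 10 endothelial and mural markers (-0.46) were below 0 too. All 15 microglia markers (median 0.22) and 11 neutrophil and monocyte markers (2.48) were above it, as were 7 members (median of all 10 members 0.21). The part of these cells in the values of the members was not tested. The intervals of the other members all included 0, from -0.13 to 0.60 for *P2ry6* for example.

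In cortex, edgeR again called 0 members and 0% of 18640 genes, with 514 genes and 1 member at an unadjusted p under 0.05, and DESeq2 called 11 genes (0.059%) and 0 members. That member was *P2rx7*, at 12.3, 12.4, 12.2 and 11.6 CPM in A+/Pwt/wt and 14.5, 14.05, 13.9 and 13.2 in A+/Pki/ki mice (log2FC 0.19 ± 0.08 SE, adjusted p = 0.9997). Its groups did not overlap, as was the case with higher A+/Pki/ki values in 1.03% of all genes, and the difference was 1.14-fold. All 10 endothelial and mural markers also had a log2FC above 0 without passing (median 0.25), and their part in the values of *P2rx7* was not tested. *Adora1* was even, at 125 to 127 CPM in A+/Pwt/wt and 110 to 142 in A+/Pki/ki mice. *Adora2a* had the widest fold range of the members, from 36.2 to 135 and from 53.5 to 120 CPM. *P2ry1* followed it from mouse to mouse, as the order of the 4 mice by *P2ry1* was their order by *Adora2a* in both genotypes, with mouse 257 (1.68 CPM *P2ry1*, 36.2 CPM *Adora2a*) and mouse 203 (2.65 and 53.5 CPM) lowest. The single A-/Pwt/wt cortex library had 34.8 CPM *P2ry12*, 12.8 *P2ry13*, 2.64 *P2ry6*, 11.2 *P2rx4*, 11.3 *P2rx7* and 13.8 *Entpd1*, below all 8 A+ libraries in each of these genes, and its summed microglia markers were 489 CPM against 948 to 1133. The share of all genes placed in this way is not given here. *Adora1*, *Adora2a*, *P2ry1* and *Adora3* lay within the A+ ranges. As a share of the summed microglia markers, *P2ry12* was 7.123% in this library and 3.925 to 6.284% in the A+ libraries. On this share *P2ry13*, *P2rx4*, *P2rx7* and *Entpd1* were above all A+ libraries too, and *P2ry6* was within their range. With 1 library these differences have no replicate check, and without the share of all genes both placings describe that library only.

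The difference between the KI effect in males and that in A+ females was tested in a single fit. edgeR called 0 members and 0% of 17619 genes, with 4664 genes and 5 members at an unadjusted p under 0.05, and DESeq2 called 1185 genes (6.73%) and 1 member, *Adora1* (adjusted p = 0.017). The male effect exceeded the female one by 2.05 ± 0.49 SE on the log2 scale for *Adora1* (edgeR adjusted p = 0.143) and by 1.51 ± 0.50 for *Adora2a* (adjusted p = 0.143). For *P2ry12*, *P2ry13*, *P2ry6*, *P2rx4*, *P2rx7* and *Entpd1* the difference was -0.70 to -0.42. No list of markers had a called gene, but all 20 neuron (median difference 2.92), 12 astrocyte (1.91), 10 oligodendrocyte (1.47) and 10 endothelial and mural markers (1.16) were above 0, like *Adora1* and *Adora2a*, and all 15 microglia markers (-0.52) and 11 neutrophil and monocyte markers (-1.94) were below it. Their part in the differences of the members was not tested. Without female A+/Pki/ki mouse 335, 8 members passed (2 higher, against 19.9% of all genes, and 6 lower, against 15.6%). Sex, transgenes and column tag all differ between the 2 effects and cannot be told apart.

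Ratios of members within a library do not depend on the scaling of libraries. The ratio of *P2ry6* to *P2rx4* per exon length was 4.56 to 5.99 in the 14 A- CD11b+ libraries (median 5.46), 2.90 to 3.87 in the 8 A+ CD11b+ libraries (median 3.44) and 0.573 to 1.21 in the 9 cortex libraries. No A+ CD11b+ library reached the lowest A- library, in either sex of the A- mice or either *Plcg2* genotype. All A+ CD11b+ libraries carried the column tag b2 and no A- library did, so tag and transgenes cannot be told apart here. In females, the log2 ratio was lower by 0.702 in A+/Pwt/wt and by 0.567 in A+/Pki/ki than in A-/Pwt/wt mice (two-sided exact permutation p = 0.00606 for each, the smallest possible here, n = 4 and 7). This pair was singled out after its values were seen among 45 pairs of members in 4 comparisons, and after adjustment over these 180 tests its p was 0.136 and 0 pairs passed. The male comparison could not pass, as its smallest exact permutation p was 0.0571. The others could pass only with many pairs at their smallest p, so the lack of calls decides nothing. The groups did not overlap for 3 of the 45 pairs in A+/Pwt/wt mice and for 5 in A+/Pki/ki mice, against 15 in the male comparison, and *P2rx4* to *Adora3* was apart in both A+ groups too (log2 differences of 0.69 and 0.55, each with the same exact permutation p of 0.00606). With 1 female library left out in turn, the differences were -0.74 to -0.64 and -0.60 to -0.51. Between KI and WT males the ratio overlapped (4.87 to 5.88 and 4.94 to 5.96).

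**Figure D5:**
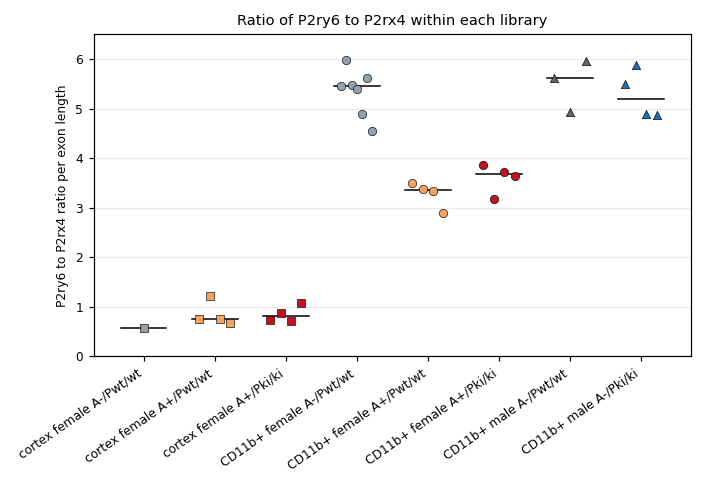
Ratio of *P2ry6* to *P2rx4* per exon length (y axis) in each library by tissue, sex and genotype (x axis), with bars at the medians. The 8 A+ CD11b+ libraries lie at 2.90 to 3.87, below all 14 A- CD11b+ libraries, from which they also differ in column tag.

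The rest of the purine pathway was followed in 57 listed genes. In male KI against WT microglia, 5 of 49 tested genes rose and 5 fell, in the same comparison in which 11.1% of all genes rose and 5.26% fell and all neuron and astrocyte markers listed rose. Leaving out KI mouse 104 gave 10 higher and 11 lower (20.2% and 13.3% of all genes). Leaving out WT mouse 102 gave 2 and 1 (783 and 111 of 16193 genes). Total counts gave 4 and 9 (1582 and 1589 of 16373 genes), and no count filter gave 10 and 5 of 56 (2597 and 603 of 30652 genes). *Panx2*, a pannexin of the family of ATP-releasing channels, was 9.65 to 14.9 CPM in WT and 31.2 to 65.8 in KI mice (log2FC 2.10 ± 0.27 SE, adjusted p = 0.00374). *Adk*, the kinase that clears adenosine inside cells, was 7.98 to 10.7 against 15.9 to 25.5 CPM (adjusted p = 0.00777), and *Gnai1*, an inhibitory G protein subunit, 15.4 to 19.2 against 26.6 to 52.4 CPM (adjusted p = 0.0119). Lower in KI mice were *Slc29a3*, a lysosomal nucleoside transporter (326 to 352 against 197 to 243 CPM, adjusted p = 0.00478), *Pik3cg*, the catalytic PI3K subunit that acts below G protein-coupled receptors (201 to 208 against 120 to 170 CPM, adjusted p = 0.0129), and *Itpr2*, a calcium channel opened by inositol trisphosphate (169 to 176 against 120 to 149 CPM, adjusted p = 0.0164). All 6 genes had ranges apart. Scaled to the 12 microglia genes, 4 of the 49 genes were called higher and 0 lower, against 1742 and 4 of all 16373 genes. *Panx2*, *Adk* and *Gnai1* still passed, while *Slc29a3* (log2FC -0.31, adjusted p = 0.259), *Pik3cg* (-0.23, adjusted p = 0.33) and *Itpr2* (-0.059, adjusted p = 0.836) did not. As hardly any gene was called lower with this scaling, these lost calls are not particular to these genes. With TMM, all 15 microglia markers also had values below 0 (median -0.33). *Pik3cg* and *Itpr2* did not pass with any of the WT mice left out (*Itpr2* also without KI mouse 139), nor *Gnai1* without WT mouse 102 (adjusted p = 0.051). Of the 6 inflammasome genes below P2X7, 1 fell and all 6 had a log2FC below 0 (median -0.36). None of the 6 other P2 receptors tested passed.

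In the main edgeR fits of A+ with A- females, *Gnas*, the stimulatory G protein subunit through which the receptor of *Adora2a* raises cyclic AMP, was the only gene of these lists to pass, 1 of 50 tested in A+/Pwt/wt and 1 of 49 in A+/Pki/ki mice, against 1.29% and 1.64% of all genes. DESeq2 called 2 higher and 1 lower in A+/Pwt/wt and 3 higher in A+/Pki/ki mice, against 3.66% and 5.48% of all genes. Leaving out mice 223 and 236 gave 2 higher and 2 lower in A+/Pwt/wt mice (357 and 277 of 17167 genes). Leaving out mouse 335 gave 3 higher and 1 lower in A+/Pki/ki mice (706 and 391 of 17287 genes). *Gnas* was 86.0 to 130 CPM in A-/Pwt/wt (median 92.0), 148 to 189 in A+/Pwt/wt and 144 to 223 in A+/Pki/ki mice (log2FC 0.70 ± 0.14 and 0.92 ± 0.16 SE, adjusted p = 0.0288 and 0.0176). All A+ libraries lay above all A- libraries, as in 2.11% and 2.3% of all genes. *Gnas* was not called with microglia scaling (log2FC 0.54 and 0.50, adjusted p = 0.786 and 0.409). Total counts also removed its call in A+/Pwt/wt mice, where 0 of the 50 genes then passed. With 1 library left out in turn, it missed the threshold in A+/Pwt/wt mice in 9 of 11 fits (adjusted p up to 0.175), all but those without A- mouse 223 or A+ mouse 331, and in A+/Pki/ki mice it did not pass without mouse 394 or 405 (adjusted p = 0.0909 and 0.094). Its exons overlap *Nespas* and *Gm20721* on the other strand, so the counts may hold their reads. Between A+/Pki/ki and A+/Pwt/wt mice, 0 of 49 genes passed in CD11b+ microglia and 0 of 50 in cortex.

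Over the 15 female CD11b+ libraries, the gene whose log2 CPM was most like that of *P2ry13* was another member, *Entpd1* (Pearson r = 0.983, and 0.868 over the 7 male libraries), and the reverse held for *Entpd1*. These libraries share their genotype groups, scaling and content of other cells, and the values of r describe them only. For *P2ry6* the closest gene was *Ifngr1* (0.964, 0.960 in males), for *P2rx7* *Coro7* (0.978, 0.862) and for *Adora3* *Ctsf* (0.921, 0.877). *P2rx4* was closest to *P3h3*, with r of 0.975 in females and 0.502 in males, and *P2ry1* to *Ehd1*, with 0.935 and 0.627. *Adora1* was closest to *Galnt16* (0.977, 0.892), *Eif1ax* (0.976, 0.939) and *Vxn* (0.974, 0.992). *Adora2a* was closest to *Hrct1* (0.955, 0.964), *Kcnj8* (0.954, 0.932), which was listed among the endothelial and mural markers, and *Sod3* (0.952, 0.741).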

How the data were processed

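The authors aligned paired-end reads to GRCm38 with STAR, counted uniquely mapped reads per gene of Gencode annotation irrespective of strand, and deposited these counts in 3 tables. Per the file headers, a further set of deposited tables holds variance-stabilized values (DESeq2, close to log2), which entered only limma. All columns were matched to samples by label. Mouse 236 is given for an A- CD11b+ and an A+ cortex library, and both labels were used as given. Replicates were different mice.

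A gene was tested if 3 or more of the fitted libraries held 10 or more counts. Groups were compared after TMM scaling by edgeR 4.0.16 (R 4.3.3), with its quasi-likelihood test, two-sided, with Benjamini-Hochberg adjusted p over all genes tested and a threshold of 0.05 without a fold limit. Each comparison was fitted on its own libraries. The SE is the log2FC over the root of F. Levels are CPM scaled by TMM within each table, so that levels of different tables share no scaling, and CPM per kb use exon lengths of Gencode M21. Alternatives were DESeq2 1.42.0 size factors and its Wald test, total counts, scaling to 12 microglia genes, other count filters, a limit of 0.5 on the log2FC, limma 3.58.1, all groups of a table in the fit, and each library left out. Leaving out mice 223 and 236 together, and the alternatives for pathway genes, were added after seeing the data. Nearest genes had a mean of at least 5 CPM, with a prior count of 2. Named were the members, the called pathway genes with the lowest adjusted p (at most 6 a comparison), the top gene of marker lists and up to 3 nearest genes a member, of which 1 is not reported here. The members and lists were chosen with earlier results of these data known.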

Additional observations from a re-analysis of the deposited data

Results flagged for a closer look

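In the CD11b+ microglia of A+/Pki/ki females, 1 library stood apart from the other 3 of its group in 2 members. *P2ry13* was 373 CPM in mouse 335 and 606 to 638 CPM in the others, and *P2ry6* was 79.4 CPM in mouse 335 and 117 to 124 CPM in the others. In each case the gap to the nearest library, over the range of the group, passed Dixon's critical value. A total of 60 such groups were tested, and chance flags about 5% of them. The same library had 19.4% mitochondrial counts and a neuron marker sum of 2649 CPM.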

How the results depend on the processing

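No paired analysis was possible because the groups compared share at most 1 mouse number. In male KI against WT mice, 3 members were called, and 6 with total counts or the Wald test of DESeq2, 1 with microglia scaling and 1 to 9 with a library left out, where the genes called among all went from 2685 to 894 (without WT mouse 102) and to 5439 (without KI mouse 104). Of the 2685, 1824 were higher, against 1742 of 1746 with microglia scaling, 1582 of 3171 with total counts, 2417 of 3719 by DESeq2 and 2597 of 3200 without a count filter. In the comparisons that called 0 members, 1 was called with mice 223 and 236 left out in A+/Pwt/wt against A- mice, 1 by DESeq2 and 0 to 1 with a library left out in A+/Pki/ki against A- mice, and 1 by DESeq2 and 0 to 8 with a library left out in the difference of the KI effects. All genes called went there from 224 (A+/Pwt/wt) to 91 to 497 and from 286 (A+/Pki/ki) to 57 to 1097 with a library left out, to 129 and 109 with total counts, to 142 and 113 with microglia scaling and to 636 and 956 by DESeq2, to 634 (A+/Pwt/wt) with both mice left out and to 510 (A+/Pki/ki) with all groups in the fit. Between A+/Pki/ki and A+/Pwt/wt cortex, 40 genes passed without a count filter and 3 with microglia scaling. Between CD11b+ microglia and cortex, 9 members were called in both genotypes, and 6 (A+/Pwt/wt) and 5 (A+/Pki/ki) with microglia scaling, none higher, where 76 of 17751 and 117 of 18086 calls among all genes were higher; with total counts these were 5435 of 14562 and 5468 of 14108. The members that changed sign then had log2FC in A+/Pwt/wt mice of -0.15 (*P2ry12*), -0.12 (*P2ry13*), -0.30 (*P2ry6*), -4.18 (*P2ry1*), -2.29 (*P2rx4*), -1.25 (*P2rx7*), -0.37 (*Entpd1*) and -0.013 (*Adora3*), and in A+/Pki/ki mice of -0.18 (*P2ry6*), -4.45 (*P2ry1*), -2.26 (*P2rx4*), -1.40 (*P2rx7*), -0.21 (*Entpd1*) and -0.24 (*Adora3*). The cause was not tested. Counting error bears most on the members with the fewest counts, *Adora3* (31 to 87) and *P2ry1* (42 to 194) in a cortex library and *Adora2a* (36 to 166) and *P2ry1* (59 to 164) in a CD11b+ library.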
